A study of Pelodiscus sinensis with 18 samples.

Results

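The genes described here are the carriers of the solute carrier families SLC2, SLC5, SLC13, SLC22, SLC23, SLC28 and SLC29 in Pelodiscus sinensis, the Chinese soft-shelled turtle, measured in liver and gut. They are the rows of the expression table whose symbol is that of a numbered member of these 7 families. This rule on names was set with earlier results of these data known. The rule found 34 of 24880 features, of which 10 belong to SLC2, 8 to SLC5, 3 to SLC13, 6 to SLC22, 2 to SLC23, 1 to SLC28 and 4 to SLC29.

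These families move small polar molecules across cell membranes. Most SLC2 proteins let hexoses pass down their gradient. By contrast, SLC5, SLC13, SLC23 and SLC28 proteins use the inward sodium gradient to concentrate sugars, inositol, monocarboxylates, dicarboxylates, sulfate, ascorbate and nucleosides. SLC22 proteins carry organic cations, organic anions, zwitterions and carnitine, and most SLC29 proteins let nucleosides equilibrate. In mammals the intestinal epithelium holds sodium-coupled sugar and monocarboxylate carriers on its luminal face, and the hepatocyte exchanges glucose with blood through SLC2A2; the roles named below are those known from mammals.

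The study exposed turtles to niclosamide, a worm drug also used against water snails, and sequenced RNA of 2 tissues. Each tissue has 3 groups of 3 libraries, namely an unexposed control, a group at 10 µg/L (nic10) and a group at 50 µg/L (nic50), and all 18 libraries are labelled as wild type. The labels give no age, sex or exposure time, and nothing in them ties libraries to separate animals. They also do not say which part of the gut was sampled. A p-value here sets a difference only against the spread of libraries within groups, and that spread may be technical. Values are FPKM, fragments per kilobase of transcript adjusted for library size, as the authors deposited them, and the depth behind them is unknown.

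The tissue labels were met by their defining markers. Over 6 hepatocyte genes, the summed level was 35273 to 50092 FPKM in the livers and 86.2 to 150 FPKM in the guts. Over 6 enterocyte genes, the summed level was 4.54 to 17.7 FPKM in the livers and 209 to 1864 FPKM in the guts, with gut nic10 library 1 lowest. A set of 17 genes was at 1 FPKM or more in 5 libraries (gut nic50 library 3, gut controls 1 and 2, liver controls 2 and 3), and under 0.3 FPKM in the other 13 libraries. Within groups, log2 values of pairs of libraries were correlated over the genes at 1 FPKM or more in either library of the pair. The correlation was 0.989 for liver controls 2 and 3 and 0.990 to 0.992 among the 3 nic50 livers, against 0.920 to 0.968 for every other pair. In bulk tissue, fewer cells of a type and less RNA per cell cannot be told apart.

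The 34 carriers together took 0.00853% to 0.0141% of the FPKM of a liver library and 0.0206% to 0.0333% of a gut library. In the control livers, SLC13A3, a carrier of succinate and other dicarboxylates, had the highest mean at 12.4 ± 5.62 FPKM (SD, n = 3), followed by SLC29A1, an equilibrative nucleoside carrier, at 11.7 ± 2.01 FPKM. The ranges of these genes overlapped. Next came SLC22A18, an organic ion carrier of unsettled substrate, at 7.62 ± 1.47 FPKM and SLC28A3, the concentrative nucleoside carrier, at 6.45 ± 0.583 FPKM, again with overlapping ranges. These 4 genes made up 55.3% of the FPKM of all 34 in control liver.

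In the control guts, SLC5A11, a sodium-coupled myo-inositol carrier, stood first at 37.5 ± 9.29 FPKM (SD, n = 3), and its range did not overlap that of SLC29A1 at 23.6 ± 2.37 FPKM. SLC5A1, the sodium-glucose cotransporter of the intestinal brush border, had nearly the same mean, 22.99 ± 20.9 FPKM, but its libraries read 11.1, 10.8 and 47.1 FPKM. The high mean of SLC5A1 therefore came from control library 3. The ascorbate carrier SLC23A1 (12.04 ± 1.79 FPKM), the monocarboxylate carrier SLC5A8 (11.4 ± 5.03 FPKM) and the equilibrative nucleoside carrier SLC29A2 (10.8 ± 4.17 FPKM) followed with overlapping ranges.

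**Figure D1:**
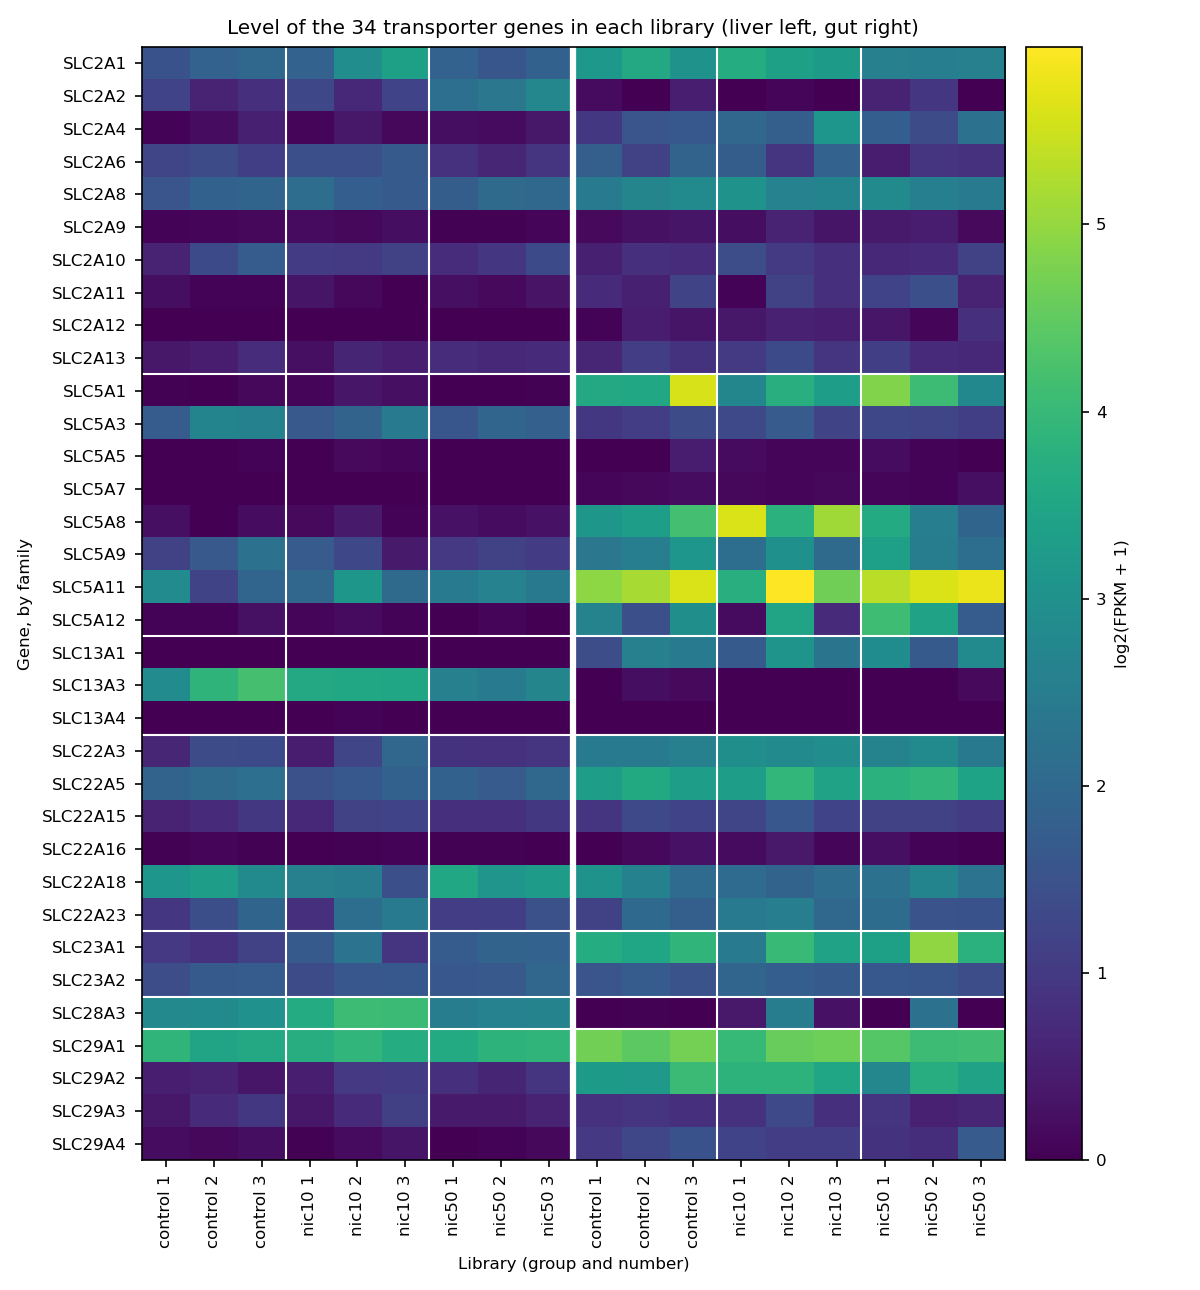
Level of each of the 34 genes (rows, by family) in each of the 18 libraries (columns, liver on the left and gut on the right), as log2(FPKM + 1) on the colour scale. SLC13A3 and SLC28A3 are bright in liver, and SLC5A1, SLC5A8 and SLC5A11 are bright in gut.

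A number of carriers were scarcely measured. Of the 34, 6 stayed under 1 FPKM in all 18 libraries, namely SLC2A9 (urate), SLC2A12 (hexoses), SLC5A5 (iodide), SLC5A7 (choline), SLC13A4 (sulfate) and SLC22A16 (carnitine). SLC13A4 was above 0 in a single library, at 0.0364 FPKM. SLC2A12, SLC5A7 and the sulfate carrier SLC13A1 were listed at 0 in all 9 livers, and an exact 0 in a table without counts can be a failed estimate.

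The table also names 5 features of these families by number only, which the rule leaves out. LOC102451646, which RefSeq calls SLC13A2, a citrate and dicarboxylate carrier, was at 22.7, 46.1 and 24.8 FPKM in the control guts and at 2.10, 2.35 and 3.33 FPKM in the control livers. It was more abundant in control gut than every SLC13 gene named by symbol, of which SLC13A1 was highest at 1.64, 5.06 and 4.37 FPKM. LOC102454801 bears on SLC2A2 and is described with it, and the other 3 features did not exceed 0.110 FPKM.

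Carrier levels in liver and gut were compared first in the unexposed animals. Of the 34 genes, 27 reached 1 FPKM in at least 3 of the 18 libraries and were tested with limma on log2(FPKM + 1), with Benjamini-Hochberg adjustment over all 13475 tested features and a threshold of 0.05. The 7 untested genes were the 6 that never reached 1 FPKM and SLC29A3, a lysosomal nucleoside carrier. Of the 27, 4 were higher and 16 lower in liver, against 12.6% of all tested features higher and 51.5% lower, 64.1% in both directions. Their median difference, liver minus gut, was −0.97 against −0.58 over all tested features. Rescaling libraries by a trimmed mean moved the median over all features to −0.14 and that of the 27 genes to −0.55, and the split to 7 higher and 13 lower. Under that rescaling SLC29A1, SLC2A11 and SLC5A9 no longer passed, and SLC22A18, SLC23A2 and SLC2A10 passed as higher in liver. Among the called genes, SLC2A4, SLC2A11, SLC5A1, SLC5A8, SLC5A12, SLC13A1 and SLC29A4 reached 1 FPKM in no liver, and SLC2A2 and SLC13A3 in no gut. SLC29A2 reached it in 1 of 9 livers and SLC28A3 in 2 of 9 guts, short of the 3 libraries needed. All of these genes entered the test only through the tissue where they were high, so the test is no support for the size of their differences. All tested features met the same filter.

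The carriers higher in liver came from 4 families. SLC13A3 read 6.29, 13.6 and 17.4 FPKM in the control livers and 0, 0.156 and 0.110 FPKM in the control guts, a log2 difference of 3.52 (SE 0.24, limma adjusted p = 2.59e-09). SLC28A3 read 5.995, 6.24 and 7.10 FPKM in liver and 0, 0.0202 and 0 FPKM in gut, a log2 difference of 2.88 (SE 0.53, limma adjusted p = 0.000209). Neither gene's tissues overlapped, and both gut groups were close to the lower end of the scale.

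SLC5A3, a sodium-coupled myo-inositol carrier, read 2.30, 5.41 and 5.15 FPKM in the control livers and 0.950, 1.11 and 1.62 FPKM in the control guts, a log2 difference of 1.20 (SE 0.25, limma adjusted p = 0.000667). The other inositol carrier of the same family, SLC5A11, was lower in liver than in gut, and within control liver the ranges of the pair overlapped. SLC2A2, the low-affinity glucose and fructose carrier of hepatocytes, read 1.29, 0.473 and 0.738 FPKM in liver and 0.127, 0 and 0.403 FPKM in gut. Its tissues did not overlap, but the log2 difference of 0.63 (SE 0.25, limma adjusted p = 0.0381) passed in only 2 of 6 fits that left out a control library, those without liver control 2 and without gut control 3. LOC102454801, whose number RefSeq gives to SLC2A2, differed by 1.35 (SE 0.37, limma adjusted p = 0.00481). In gut it exceeded 1 FPKM only in control library 3 and nic50 library 2, so it entered the test through liver. The test is no support for the size of its difference either. This row and the SLC2A2 row summed to 3.25 ± 0.909 FPKM in control liver and 0.580 ± 0.897 FPKM in control gut (SD, n = 3).

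The sodium-coupled carriers of SLC5 gave the largest log2 differences in favour of gut on the log2(FPKM + 1) scale. SLC5A1 and SLC5A8 were under 1 FPKM in every liver, so their order on this scale is no ranking by fold. SLC5A1 was at 0.0238, 0 and 0.0972 FPKM in the control livers, a log2 difference of −4.19 (SE 0.49, limma adjusted p = 2.02e-06) from the gut values above. SLC5A8, a carrier of lactate, pyruvate and short-chain fatty acids, read 7.90, 9.09 and 17.1 FPKM in gut and 0.192, 0 and 0.139 FPKM in liver, a log2 difference of −3.41 (SE 0.42, limma adjusted p = 4.07e-06). Of both genes, every gut control lay far above every liver control.

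SLC5A11 read 29.8, 34.9 and 47.8 FPKM in the control guts and 6.27, 1.33 and 2.82 FPKM in the control livers, a log2 difference of −3.23 (SE 0.47, limma adjusted p = 2.01e-05). SLC29A2 read 8.51, 8.30 and 15.6 FPKM in gut and 0.404, 0.503 and 0.281 FPKM in liver, a log2 difference of −3.03 (SE 0.26, limma adjusted p = 4.31e-08). SLC23A1, which takes up dietary and renal ascorbate, read 11.9, 10.3 and 13.9 FPKM in gut and 0.986, 0.793 and 1.26 FPKM in liver, a log2 difference of −2.69 (SE 0.41, limma adjusted p = 3.22e-05). In all of these the lowest gut library was above the highest liver library. The second ascorbate carrier, SLC23A2, by contrast had control means of 2.05 FPKM in both tissues, and its difference was −0.00 (SE 0.16, limma adjusted p = 0.994) on the deposited scale but 0.40 (limma adjusted p = 0.0224) after trimmed-mean rescaling.

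The other genes lower in liver were SLC2A1, SLC2A4, SLC2A8 and SLC2A11 among the hexose carriers, SLC5A9 and SLC5A12 in SLC5, SLC13A1, SLC22A3 and SLC22A5 among the ion carriers, and SLC29A1 and SLC29A4. SLC2A1, the widespread glucose carrier, had a mean of 2.49 ± 0.612 FPKM in control liver and 8.78 ± 2.03 FPKM in control gut (SD, n = 3), a log2 difference of −1.48 (SE 0.29, limma adjusted p = 0.000337), and the carnitine carrier SLC22A5 by −1.37 (SE 0.19, limma adjusted p = 1.08e-05). SLC13A1, listed at 0 in liver, also passed (limma adjusted p = 8.09e-05), and no fold is given for it. The calls of SLC5A9 (−0.997, limma adjusted p = 0.0282) and SLC2A11 (−0.71, limma adjusted p = 0.0281) held in 3 of 6 fits without 1 library. Both were lost without liver control 2 or gut control 3, SLC5A9 also without liver control 1 and SLC2A11 also without liver control 3. The most abundant SLC22 gene of liver, SLC22A18, differed by 0.51 (SE 0.29, limma adjusted p = 0.124).

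**Figure D2:**
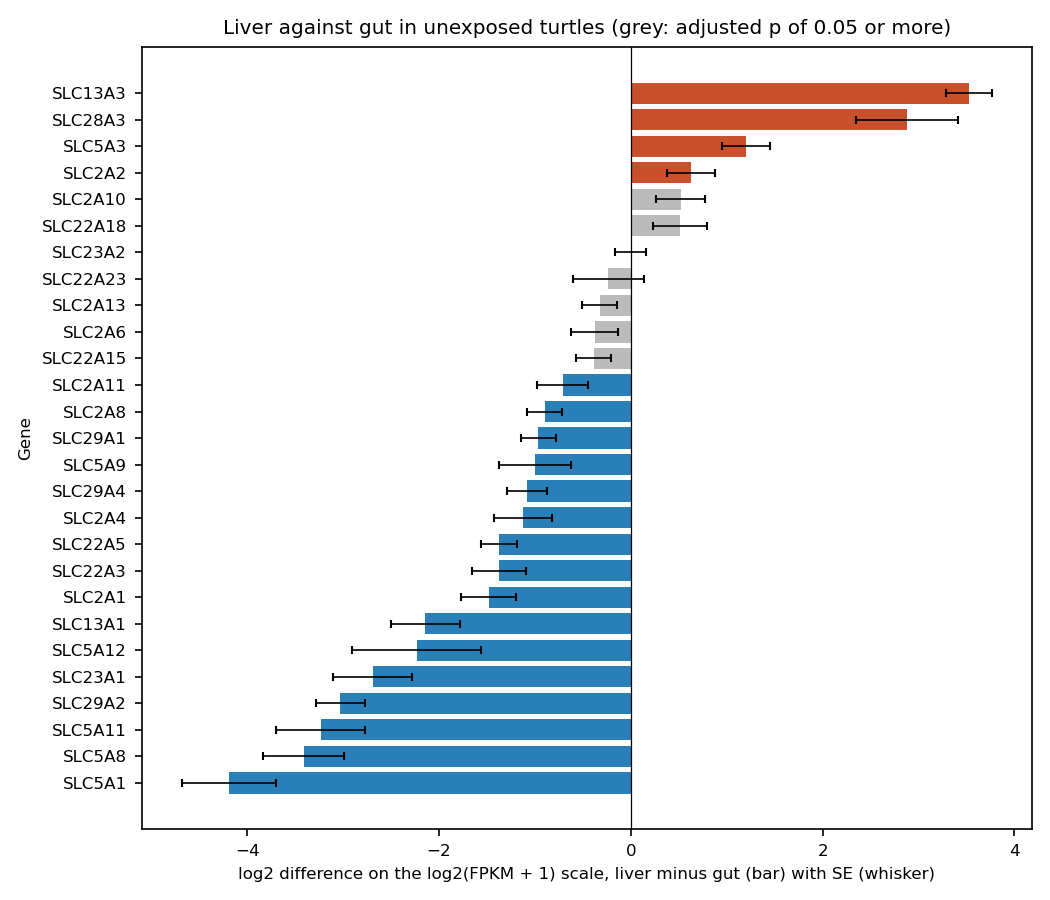
Difference between control liver and control gut for the 27 tested genes, as log2 difference on the log2(FPKM + 1) scale (bars) with its standard error (whiskers, n = 3 libraries per tissue). SLC13A3, SLC28A3, SLC5A3 and SLC2A2 extend to the liver side, and SLC5A1 extends farthest to the gut side at −4.19. The bar of SLC13A1 is measured from liver values listed at 0.

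Partner genes of the carriers were taken from 9 lists, which held 107 genes found in the table. The lists were drawn up with earlier results of these data known. Of 101 tested between control tissues, 26 were higher and 51 lower in liver, beside the 12.6% and 51.5% of all tested features given above. In the list of genes that maintain the sodium gradient, 0 of 9 tested were higher and 7 lower, among them the sodium pump subunit ATP1B1 with a log2 difference of −3.02 (SE 0.20, limma adjusted p = 2.46e-09). In the nucleoside list, 4 of 19 were higher and 9 lower, led by adenosine kinase ADK, higher by 3.87 (limma adjusted p = 2.15e-11), and the uridine-cytidine kinase UCK2, lower in liver with −4.34 (limma adjusted p = 6.61e-11). Higher and lower in liver were 4 and 6 of 13 genes of hexose use, 4 and 6 of 13 of glycolysis and glucose release, 4 and 9 of 18 glucose-responsive regulators, and 3 and 7 of 12 efflux partners. The counts were 4 and 3 of 10 for carnitine, citrate and urate partners, 2 and 2 of 4 for ascorbate, and 1 and 2 of 3 for disaccharidases. Among the latter, the sucrase-isomaltase gene SI differed by −2.58 (SE 0.42, limma adjusted p = 5.93e-05) and the trehalase gene TREH by 0.94 (SE 0.36, limma adjusted p = 0.0323), a call lost without liver control 1, gut control 1 or gut control 2.

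In liver, the effect of niclosamide was tested on 17 of the 34 genes, those at 1 FPKM or more in at least 3 of the 9 liver libraries. A single carrier passed at each dose against control, SLC28A3 at 10 µg/L and SLC2A2 at 50 µg/L, both upward. At 10 µg/L that is 1 of 17 against 1.07% of 10892 tested features (0.734% higher and 0.331% lower), and at 50 µg/L 1 of 17 against 4.71% (3.69% higher and 1.02% lower). A single gene is the smallest count above 0 that 17 genes allow, so no enrichment is read from it. Between the doses, 2 of 17 differed, SLC28A3 lower and SLC2A2 higher at 50 µg/L, against 2.53% of features (1.79% higher and 0.744% lower). At an unadjusted p under 0.05 there were 3, 4 and 6 of 17 in these comparisons. The share of all tested features under that p was not counted, so no excess is read from these numbers. Both comparisons with control share the same 3 control livers.

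The medians of the 17 genes were 0.11 at 10 µg/L, −0.19 at 50 µg/L and −0.06 between the doses, against 0.04, 0.13 and 0.10 over all tested features. Trimmed-mean rescaling moved the median over all features at 50 µg/L to 0.01 and that of the 17 genes to −0.25. It also moved the share of all features called higher and lower there from 3.69% and 1.02% to 2.29% and 1.52%.

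The nucleoside carrier SLC28A3 was highest at the lower dose. It read 5.995, 6.24 and 7.10 FPKM in the control livers, 11.55, 16.01 and 15.5 FPKM at 10 µg/L, and 4.70, 5.21 and 5.35 FPKM at 50 µg/L. The groups did not overlap, with every nic10 liver above every control and every nic50 liver below. Against control it rose at 10 µg/L by a log2 difference of 1.03 (SE 0.18, limma adjusted p = 0.0253), while at 50 µg/L the difference was −0.29 (SE 0.18, limma adjusted p = 0.407). Between the doses it fell by 1.32 (SE 0.18, limma adjusted p = 0.00392), a call lost only without nic50 library 1 among the fits without 1 library (limma adjusted p = 0.0517).

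The nic10 call held without control 1 and without nic10 library 1, and was lost without any 1 of the other 4 control and nic10 livers, where the difference stayed between 0.95 and 1.10 and the highest adjusted p was 0.127. Adding the 17-gene set as a covariate leaves control 1 as the only control, and the difference was then 1.12 (limma adjusted p = 0.0871). The other nucleoside carrier tested in liver, SLC29A1, read 13.9, 10.1 and 11.0 FPKM in controls, 12.1, 14.2 and 11.9 FPKM at 10 µg/L and 11.4, 13.5 and 13.9 FPKM at 50 µg/L. Its groups overlapped throughout.

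SLC2A2 rose in liver at 50 µg/L. It read 1.29, 0.473 and 0.738 FPKM in controls, 1.43, 0.576 and 1.30 FPKM at 10 µg/L, and 3.47, 4.15 and 5.72 FPKM at 50 µg/L. All nic50 livers lay above all others, and control and nic10 livers overlapped. The log2 difference was 1.58 against control (SE 0.25, limma adjusted p = 0.00688) and 1.38 against nic10 (SE 0.25, limma adjusted p = 0.0184). The added constant of 1 compresses such low values, and with 0.1 in its place the difference from control was 2.35 (limma adjusted p = 0.0169).

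The call against control was lost without nic50 library 3 (1.41, limma adjusted p = 0.0562). The difference between the doses was lost without nic10 library 2 or any 1 of the nic50 libraries, with adjusted p up to 0.117.

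A second row of the table may also belong to SLC2A2. RefSeq gives that symbol to 1 gene, whose gene number is the name of LOC102454801. Whether both rows are parts of 1 gene in the authors' annotation is not known. If they are, reads of the gene may be split between the rows. LOC102454801 read 1.53, 2.17 and 3.56 FPKM in control livers, 1.26, 3.46 and 1.18 FPKM at 10 µg/L and 2.90, 2.57 and 4.41 FPKM at 50 µg/L, with overlapping groups and a difference of 0.35 at 50 µg/L (SE 0.32, limma adjusted p = 0.597). The sum of both rows was 2.81, 2.64 and 4.30 FPKM in controls, 2.68, 4.04 and 2.48 FPKM at 10 µg/L, and 6.37, 6.72 and 10.1 FPKM at 50 µg/L. On the summed values the groups again separated at 50 µg/L, by 1.04 against control (SE 0.24, limma adjusted p = 0.0379) and 1.10 against nic10 (SE 0.24, limma adjusted p = 0.0402).

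Averaging the libraries that resembled each other most, liver controls 2 and 3 to 1 value and the 3 nic50 livers to 1, left 0 carriers past the threshold in all 3 liver comparisons. With those averages SLC28A3 differed by 1.06 at 10 µg/L (limma adjusted p = 0.579) and SLC2A2 by 1.49 at 50 µg/L (limma adjusted p = 0.699), close in size to the differences above, with fewer values behind them.

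**Figure D3:**
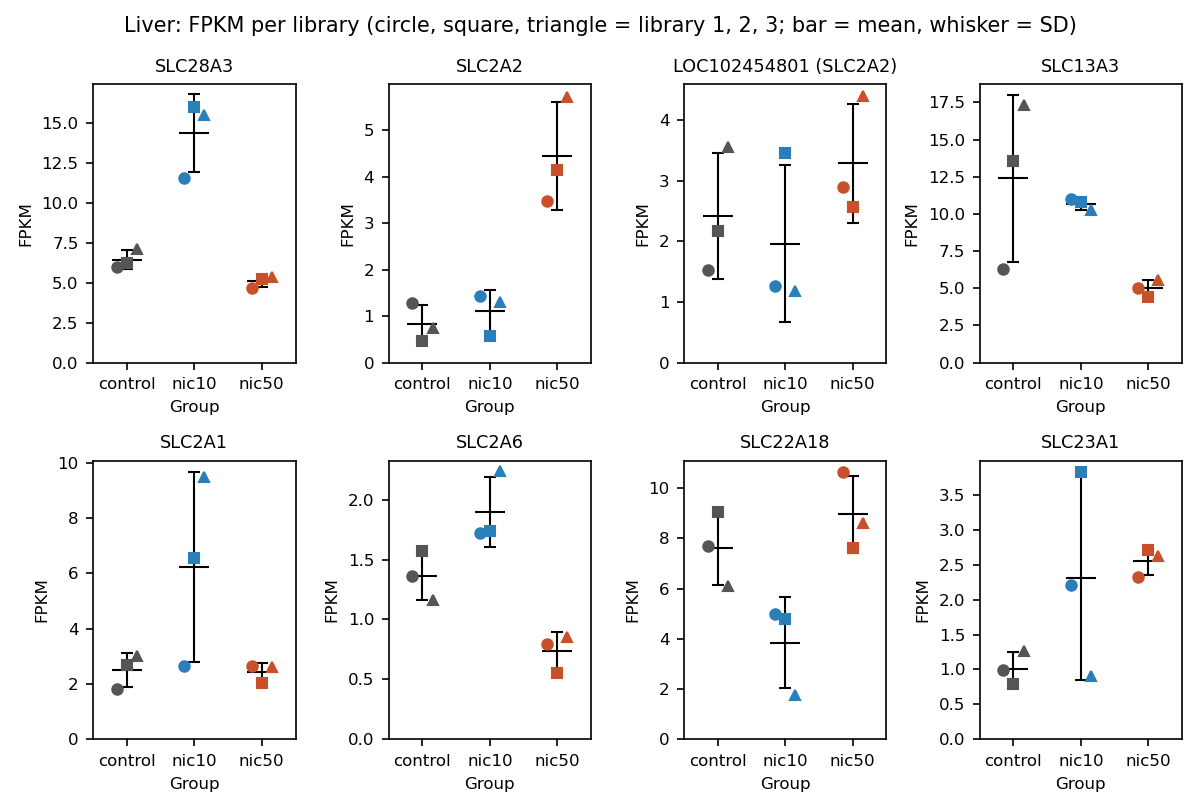
FPKM of 7 carriers and of LOC102454801 in each liver library, with 1 panel per row and a separate FPKM axis from 0 in each. Circles, squares and triangles are libraries 1, 2 and 3, horizontal bars are means and whiskers SD (n = 3). SLC28A3 is high only in the nic10 livers, at 11.55 to 16.01 FPKM, and SLC2A2 in the nic50 livers, at 3.47 to 5.72 FPKM.

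Among the other hexose carriers of liver, SLC2A1 read 1.81, 2.67 and 2.999 FPKM in controls, 2.64, 6.56 and 9.49 FPKM at 10 µg/L and 2.64, 2.03 and 2.59 FPKM at 50 µg/L. The nic10 libraries were spread widely, the lowest of them within the control range, and the difference of 0.93 (SE 0.33, limma adjusted p = 0.24) passed only without nic10 library 1 (1.37, limma adjusted p = 0.015). SLC2A6, a hexose carrier of internal membranes, read 1.36, 1.57 and 1.16 FPKM in controls, 1.72, 1.74 and 2.24 FPKM at 10 µg/L and 0.797, 0.549 and 0.854 FPKM at 50 µg/L. Its 3 groups did not overlap, with nic50 lowest. The difference of SLC2A6 between the doses, −0.74 (SE 0.17, limma adjusted p = 0.0506), missed the threshold on the deposited scale and passed after trimmed-mean rescaling (−0.79, limma adjusted p = 0.036), and against control it was −0.45 at 50 µg/L (SE 0.17, limma adjusted p = 0.171).

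For the dicarboxylate carrier SLC13A3 the control livers themselves were far apart. It read 6.29, 13.6 and 17.4 FPKM in controls, 11.0, 10.8 and 10.3 FPKM at 10 µg/L, and 5.03, 4.42 and 5.55 FPKM at 50 µg/L. Every nic50 liver lay below every other liver, and control 1 lay closer to the nic50 livers than to the other controls. The difference at 50 µg/L was −1.06 (SE 0.29, limma adjusted p = 0.0654). It passed without control 1 (−1.45, limma adjusted p = 0.00254) and after trimmed-mean rescaling (−1.19, limma adjusted p = 0.0221). The other 2 control livers are those that hold the 17-gene set, so a fit with that set as a covariate compares the nic50 livers with control 1 alone, where the difference was −0.29 (limma adjusted p = 0.355).

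The organic ion carrier SLC22A18 read 7.71, 9.05 and 6.11 FPKM in control livers, 4.98, 4.78 and 1.75 FPKM at 10 µg/L and 10.6, 7.61 and 8.62 FPKM at 50 µg/L. All nic10 livers lay below all others. The differences were −0.90 at 10 µg/L (SE 0.29, limma adjusted p = 0.199) and 1.11 between the doses (SE 0.29, limma adjusted p = 0.0739), and the latter passed only without nic10 library 1 (1.31, limma adjusted p = 0.0247). The ascorbate carrier SLC23A1 read 0.986, 0.793 and 1.26 FPKM in controls, 2.21, 3.84 and 0.904 FPKM at 10 µg/L and 2.32, 2.72 and 2.63 FPKM at 50 µg/L. The nic50 livers were above the controls and the nic10 livers overlapped both, with differences of 0.63 at 10 µg/L (SE 0.29, limma adjusted p = 0.38) and 0.83 at 50 µg/L (SE 0.29, limma adjusted p = 0.139).

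The 10 other tested carriers in liver, SLC2A8, SLC2A10, SLC5A3, SLC5A9, SLC5A11, SLC22A3, SLC22A5, SLC22A23, SLC23A2 and SLC29A1, did not pass in either comparison with control. Their differences ran from −0.54 for SLC5A9 to 0.38 for SLC5A11 at 10 µg/L, and from −0.61 to 0.50 for the same genes at 50 µg/L.

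**Figure D4:**
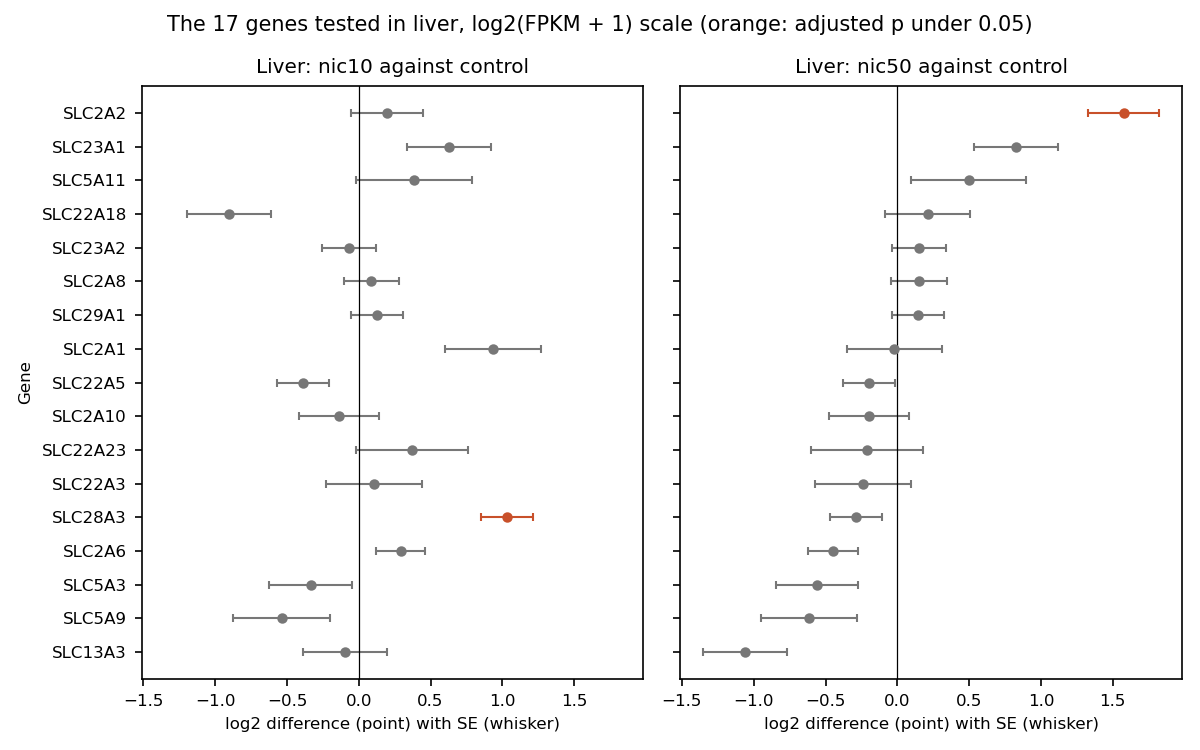
Difference from control at 10 µg/L (left) and 50 µg/L (right) for the 17 carriers tested in liver, as log2 difference on the log2(FPKM + 1) scale (points) with standard error (whiskers, n = 3 libraries per group). SLC28A3 at 10 µg/L (1.03) and SLC2A2 at 50 µg/L (1.58) are the points past the threshold.

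Other cell types were measured beside these results. The summed level of 6 stellate or fibroblast genes was 10.2 to 14.9 FPKM in control livers, 18.6 to 30.1 FPKM at 10 µg/L and 31.8 to 47.4 FPKM at 50 µg/L. Of these, 4 of 5 tested, COL1A1, COL3A1, DCN and HAND2, were higher at 50 µg/L (limma adjusted p = 0.00745 to 0.0404), against 3.69% of all tested features. The hepatocyte sum was 35273 to 43506 FPKM in controls, 44491 to 50092 FPKM at 10 µg/L and 43506 to 46173 FPKM at 50 µg/L. The macrophage sum of 3 genes was 91.2 to 122 FPKM in controls, 69.8 to 131 FPKM at 10 µg/L and 82.3 to 98.3 FPKM at 50 µg/L. Of these 3, the scavenger receptor gene MARCO read 0.247, 0.547 and 0.572 FPKM in controls, 5.88, 2.23 and 3.47 FPKM at 10 µg/L and 0.289, 0.451 and 0.432 FPKM at 50 µg/L. It was higher at 10 µg/L by 1.68 (SE 0.26, limma adjusted p = 0.015) and lower at 50 than at 10 µg/L with −1.74 (SE 0.26, limma adjusted p = 0.00627). MARCO was thus high in the same group of livers as SLC28A3, but highest in nic10 library 1, where SLC28A3 was lowest of that group. MARCO reached 1 FPKM only in the nic10 livers and entered the test through them, so the test is no support for the size. The part of these cells in the SLC2A2, SLC28A3 and SLC13A3 values was not tested. Markers of kidney tubule (2 of 4 listed genes found) reached at most 0.0297 FPKM and those of pancreatic acini (2 of 4 found) were listed at 0 in all livers.

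Of 86 partner genes tested in liver, 0 were higher and 1 lower at 10 µg/L, against 0.734% and 0.331% of all tested features. At 50 µg/L, 1 was higher and 1 lower, against 3.69% and 1.02%. ENTPD3, an enzyme that splits extracellular nucleotides on the way to nucleosides, read 6.85, 10.5 and 9.26 FPKM in controls, 1.30, 0.725 and 0.499 FPKM at 10 µg/L and 3.57, 2.79 and 2.94 FPKM at 50 µg/L. Its groups did not overlap, and it fell by 2.43 at 10 µg/L (SE 0.22, limma adjusted p = 0.00107) and by 1.25 at 50 µg/L (SE 0.22, limma adjusted p = 0.0124), the latter call lost without control 2 or 3 or nic50 library 2 or 3, with adjusted p up to 0.0816. UGDH, which makes UDP-glucuronate, rose at 50 µg/L by 0.90 (SE 0.22, limma adjusted p = 0.0448), a call that held only without control 1 in the fits without 1 library.

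Between the doses, 4 of 86 partner genes were higher at 50 µg/L and 0 lower, against 1.79% and 0.744% of all tested features. They were ENTPD3 by 1.17 (limma adjusted p = 0.0224), the triokinase TKFC by 0.97 (limma adjusted p = 0.0394), the pyruvate dehydrogenase kinase PDK4 by 2.81 (limma adjusted p = 0.0132) and the coactivator PPARGC1A by 1.92 (limma adjusted p = 0.018). Each of these calls was lost without nic10 library 3 and without any 1 of the nic50 libraries, and those of ENTPD3 and PPARGC1A also without nic10 library 2. The partner lists were drawn up with earlier results known, so no enrichment is read from the count.

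In gut, 24 of the 34 carriers were tested and 0 passed in any comparison. The background was low there too, at 0.174% of 12617 features for nic10 against control (0.0793% higher and 0.0951% lower), 0.0238% for nic50 against control, all lower, and 0.119% between the doses (0.0238% higher and 0.0951% lower). Limma gave an unadjusted p under 0.05 for 4, 2 and 3 carriers. The share of all features under that p was not counted, so no excess is read from it. The medians were 0.16, 0.00 and −0.20, against 0.11, −0.02 and −0.13 over all features, and trimmed-mean rescaling moved the last pair to −0.10 and −0.02. The 10 untested carriers were SLC2A2, SLC2A9, SLC2A12, SLC5A5, SLC5A7, SLC13A3, SLC13A4, SLC22A16, SLC28A3 and SLC29A3.

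The smallest p at 50 µg/L in gut belonged to SLC2A1. It read 7.97, 11.1 and 7.29 FPKM in controls, 11.9, 9.48 and 8.40 FPKM at 10 µg/L, and 4.99, 4.82 and 4.99 FPKM at 50 µg/L. The nic50 guts lay below all others with an SD of 0.101 FPKM, while controls and nic10 overlapped. The differences were −0.70 against control (SE 0.19, limma adjusted p = 0.532) and −0.87 against nic10 (SE 0.19, limma adjusted p = 0.123).

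SLC2A6 had the next smallest p at 50 µg/L. It read 2.48, 1.23 and 2.70 FPKM in control guts, 2.35, 0.855 and 2.67 FPKM at 10 µg/L and 0.389, 0.895 and 0.787 FPKM at 50 µg/L. The nic50 guts lay below the controls, and nic10 library 2 lay among them. The differences were −0.87 against control (SE 0.31, limma adjusted p = 0.661) and −0.76 against nic10 (SE 0.31, limma adjusted p = 0.318). SLC29A1 at 24.7, 20.9 and 25.3 FPKM in controls and 19.9, 15.8 and 16.6 FPKM at 50 µg/L differed by −0.42 (SE 0.20, limma adjusted p = 0.782), also without overlap. At 10 µg/L it read 14.7, 22.8 and 24.0 FPKM, so nic10 library 1 lay below every nic50 gut.

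The monocarboxylate carrier SLC5A8 varied most between the doses in gut. It read 7.90, 9.09 and 17.1 FPKM in controls, 47.9, 12.9 and 33.0 FPKM at 10 µg/L, and 11.5, 4.83 and 2.79 FPKM at 50 µg/L. Every nic10 gut was above every nic50 gut, and the controls overlapped both. The difference between the doses was −2.13 (SE 0.54, limma adjusted p = 0.191), and without nic10 library 2 it was −2.65 and passed (limma adjusted p = 0.0323). Against control it was 1.27 at 10 µg/L (SE 0.54, limma adjusted p = 0.326) and −0.85 at 50 µg/L (SE 0.54, limma adjusted p = 0.861).

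At 10 µg/L the organic cation carrier SLC22A3 read 6.75, 6.08 and 6.51 FPKM against 4.47, 4.41 and 5.02 FPKM in control guts. These groups did not overlap, and the difference was 0.40 (SE 0.16, limma adjusted p = 0.297). SLC2A4, the insulin-responsive glucose carrier of muscle and fat, read 2.93, 2.50 and 7.72 FPKM against 0.953, 1.96 and 2.12 FPKM, again without overlap, a difference of 0.91 (SE 0.37, limma adjusted p = 0.311). SLC22A23 read 4.59, 4.81 and 2.98 FPKM against 1.24, 3.11 and 2.47 FPKM, with overlap and a difference of 0.67 (SE 0.28, limma adjusted p = 0.316), and between the doses it differed by −0.63 (SE 0.28, limma adjusted p = 0.352).

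The gut nic10 libraries differed in their enterocyte markers. The enterocyte fatty acid binding protein FABP2 read 141, 229 and 135 FPKM in control guts but 4.56, 458 and 37.8 FPKM at 10 µg/L, so libraries 1 and 3 were far below library 2. The enterocyte sum of 6 genes was 1163 to 1646 FPKM in controls, 209, 1864 and 829 FPKM at 10 µg/L and 1172 to 1794 FPKM at 50 µg/L. The sum of SOX9 and EPCAM, also epithelial genes, did not follow that split. It was 569 to 646 FPKM in controls, 585, 554 and 545 FPKM at 10 µg/L and 346 to 682 FPKM at 50 µg/L. The sum of 3 smooth muscle genes was 319 to 511 FPKM in controls, 784, 384 and 785 FPKM at 10 µg/L and 296 to 1602 FPKM at 50 µg/L. The sum of 4 endothelial genes was 18.2 to 20.03 FPKM in controls, 27.7 to 37.2 FPKM at 10 µg/L and 6.33 to 15.9 FPKM at 50 µg/L, so its groups did not overlap and nic50 was lowest, as for SLC2A1. The part of these cells in the SLC2A1 values was not tested.

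Some carriers of the absorptive surface were also low in nic10 libraries 1 and 3. SLC5A11 read 12.5, 60.7 and 24.4 FPKM there against 29.8 to 47.8 FPKM in controls, and SLC5A12, a monocarboxylate carrier of low affinity, read 0.125, 10.1 and 0.635 FPKM against 1.72 to 6.82 FPKM. SLC23A1 read 4.50, 15.4 and 9.78 FPKM against 10.3 to 13.9 FPKM. In these 3 genes libraries 1 and 3 lay below the control range and library 2 above it, while SLC5A8 was highest in libraries 1 and 3. Other carriers followed this only in part. SLC5A1 (5.62, 12.5 and 8.90 FPKM) and SLC5A9 (3.44, 6.89 and 3.13 FPKM) had library 2 within the control range. SLC13A1 (2.21, 7.43 and 3.91 FPKM) had libraries 1 and 3 within it. LOC102451646 (17.1, 55.6 and 46.7 FPKM) had library 3 above it. The part of the enterocytes' share in these values was not tested. With libraries 1 and 3 left out, nic10 is library 2 alone, assumed to vary like the other groups, and SLC5A8 differed from control by 0.24. Those are the libraries where SLC5A8 was highest, so leaving them out lowers its difference by construction. Nothing is read from that value.

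Of 94 partner genes tested in gut, limma called 0 in any comparison, against the low shares of all features given above. At an unadjusted p under 0.05 there were 23 for nic10 against control, 2 for nic50 against control and 22 between the doses. No excess is read from these counts, as the share of all features under that p was not counted.

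SLC28A3, so low in control gut, read 0.330, 4.63 and 0.228 FPKM at 10 µg/L and 0, 3.63 and 0 FPKM at 50 µg/L. The only values above 1 FPKM in gut were thus library 2 of each exposed group, and the gene was not tested there.

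**Figure D5:**
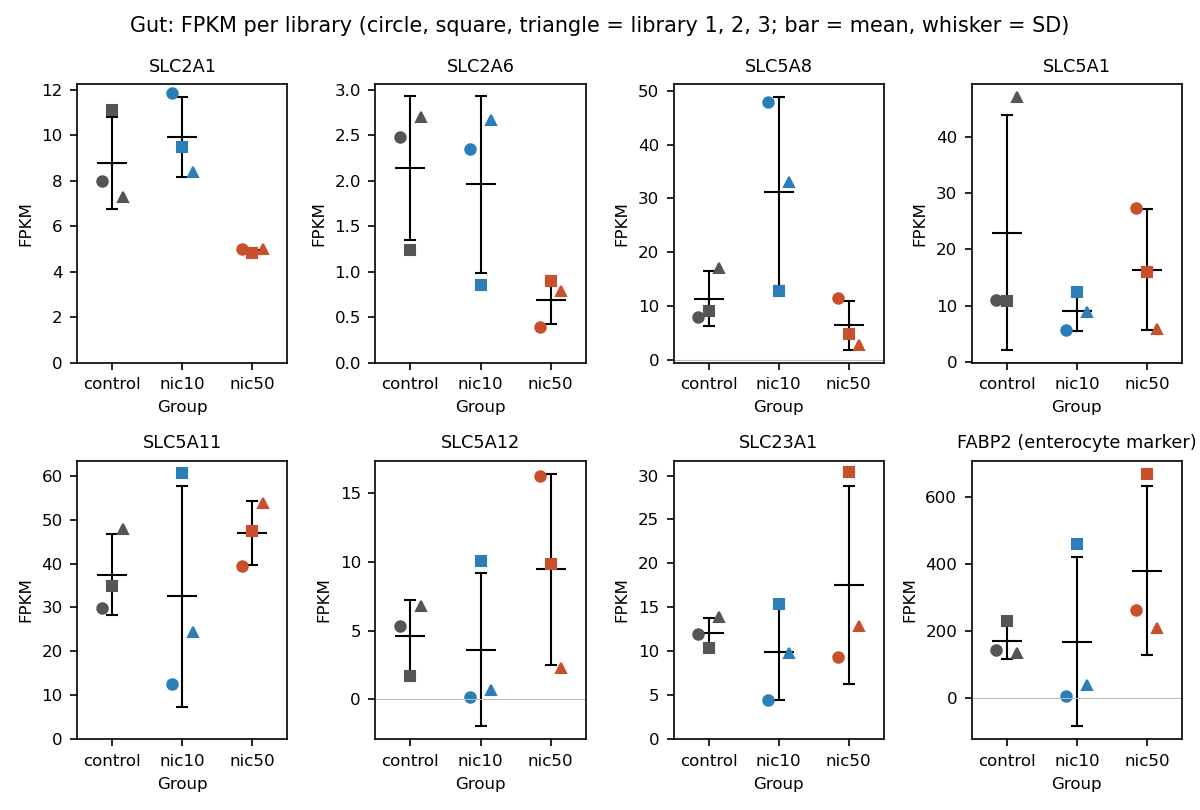
FPKM of 7 carriers and of the enterocyte gene FABP2 in each gut library, with 1 panel per gene and a separate FPKM axis in each. Circles, squares and triangles are libraries 1, 2 and 3, horizontal bars are means and whiskers SD (n = 3), which can reach below 0. SLC2A1 sits at 4.82 to 4.99 FPKM in the nic50 guts, and SLC5A11, SLC5A12 and FABP2 are low in nic10 libraries 1 and 3.

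Whether a carrier answered differently in liver than in gut was tested as the liver change minus the gut change, on 27 carriers. None passed at 10 µg/L, where limma gave 1 unadjusted p under 0.05 and called 0.364% of 13475 features (0.208% higher and 0.156% lower in liver), or at 50 µg/L, with 3 such carriers and 0.987% of features called (0.839% higher and 0.148% lower). No excess is read from the unadjusted counts, as the share of all features under that p was not counted. The median difference was −0.02 at 10 µg/L and 0.12 at 50 µg/L, against −0.08 and 0.13 over all features. For SLC2A2 the difference at 50 µg/L was 1.28 (SE 0.36, limma adjusted p = 0.109) and for SLC13A3 −0.99 (SE 0.34, limma adjusted p = 0.205). SLC28A3 at 10 µg/L gave −0.02 (SE 0.75, limma adjusted p = 0.997), in a fit that holds gut nic10 library 2 at 4.63 FPKM.

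Summed over their members, SLC2 genes read 7.48 to 11.2 FPKM in control livers, 10.8 to 17.1 FPKM at 10 µg/L and 11.0 to 14.9 FPKM at 50 µg/L. In gut the SLC2 sum was 17.9 to 22.7 FPKM in controls, 22.9 to 27.6 FPKM at 10 µg/L and 16.7 to 18.1 FPKM at 50 µg/L. The SLC5 sum in gut was 59.2, 62.5 and 129 FPKM in controls, 71.2, 105 and 71.6 FPKM at 10 µg/L and 105, 84.4 and 69.6 FPKM at 50 µg/L, with full overlap. The SLC29 sum in gut was 31.5 to 43.5 FPKM in controls, 30.2 to 38.9 FPKM at 10 µg/L and 27.3 to 29.1 FPKM at 50 µg/L, where the nic50 guts lay below all others. These sums carry no test.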

How the data were processed

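RNA was measured in 18 libraries, 3 for each of 3 groups in liver and gut. The authors deposited 1 table of FPKM values, per the file headers, with 24880 features. Per the labels' protocols, TRIzol served for extraction and a VAHTS kit for the libraries. CASAVA is named in the submitters' processing notes; an aligner, a counter or a build is not given in the sources used here. FPKM already divides by length and library size, so no count test was run. Only 0.274% to 0.463% of low genes had the commonest ratio between a pair of libraries, so single reads could not be told and depth is unknown. Summed FPKM was 588542 to 699273 for liver libraries, and gut libraries held 677583 to 753840.

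Each tissue was fitted with limma 3.58.1 in R 4.3.3 (lmFit, eBayes with trend) on log2(FPKM + 1), with group means, on features at 1 FPKM or more in at least 3 libraries of the fit. Tests are two-sided, adjusted by Benjamini-Hochberg over all tested features, with a threshold of 0.05; the tissue comparison and the tests of liver against gut change used all 18 libraries. A log2 difference on this scale understates the change of low genes. The fit was tested on simulated data. Named in full are carriers past the threshold in an exposure comparison, at least 4 by smallest p in each within a tissue, and between tissues up to 5 called higher and 5 called lower. Of 135 partner genes listed, 107 were found; the text names some of them, and the result of 1 other is not reported here. Members and lists were chosen with earlier results of these data known. RefSeq names (ASM4963464v1) matched 32 of 34 carriers and served for names only. Alternatives were the pseudocount, the filter, rescaling by trimmed mean or quantiles, the replicate number as a block, leaving out libraries and averaging alike livers. Chosen after seeing the data were a covariate for the 17-gene set, summing the SLC2A2 and LOC102454801 rows, and leaving out gut nic10 libraries 1 and 3. The labels name no batch.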

Additional observations from a re-analysis of the deposited data

Results flagged for a closer look

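Among the 9 comparisons, the difference between the liver change and the gut change passed the test for 2 of 101 tested partner genes, both at 10 µg/L. There 1 was higher and 1 lower in liver, against 0.208% and 0.156% of all tested features. The partner lists were drawn up with earlier results known, so no enrichment is read from the count. For ENTPD3 it was −2.01 (SE 0.31, limma adjusted p = 0.00668), with gut values of 0.497, 0.466 and 1.45 FPKM in controls and 0.239, 0.438 and 0.276 FPKM at 10 µg/L beside the fall in liver. Every nic10 gut thus lay below every control gut, so ENTPD3 was lower in both tissues. The added constant of 1 compresses changes at the low gut levels, so −2.01 is no measure of how the tissues differ in fold. For LCT, the lactase-phlorizin hydrolase of the brush border, the difference between the changes was 1.13 (SE 0.22, limma adjusted p = 0.0303). The call held in 4 of 9 fits without 1 library, and was lost without liver controls 2 or 3, liver nic10 library 3 or gut nic10 libraries 1 or 3. Without any 1 of the gut controls LCT no longer reached 1 FPKM in enough libraries to be tested, so it entered the test through the group where it was high, and the test is no support for the size. The gut comparison at 10 µg/L did not call LCT. LCT read 1.31, 1.75 and 1.34 FPKM in control guts and 0.0509, 0.485 and 0.0811 FPKM at 10 µg/L, while no liver library exceeded 0.131 FPKM. The difference between the changes of LCT was thus made almost wholly by the gut values.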

How the results depend on the processing

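The number of carriers past the threshold in liver was small and moved with the settings. At 10 µg/L it was 0 with alike livers averaged and 0 with the covariate for the 17-gene set, which leaves 1 control liver, and 0 to 2 when 1 library was left out. At 50 µg/L it was 0 with alike livers averaged, 0 with a mean of at least 5 FPKM required, which leaves SLC2A2 untested, and 2 after trimmed-mean or quantile rescaling, where SLC13A3 joined, and 0 to 2 without 1 library. Between the doses it was 0 with alike livers averaged, 1 without a filter and 1 at a mean of 5 FPKM, 4 after trimmed-mean or quantile rescaling and 4 with the covariate, where SLC13A3 and SLC2A6 joined, and 0 to 6 without 1 library (6 without nic10 library 1, 0 without nic50 library 1). Averaging leaves nic50 liver 1 value, assumed to vary like the others, and fewer values by construction; otherwise the cause was not tested. Between control tissues the count was 8 at a mean of 5 FPKM, where fewer genes were tested, and 18 to 21 otherwise. In gut it was 0 to 1 between the doses when 1 library was left out and 0 under every alternative in the comparisons with control. The test of liver against gut change at 50 µg/L called 1 carrier, SLC13A3, after quantile normalization, and 0 to 1 without 1 library. SLC23A2 between tissues turned from −0.0019 to 0.40 by trimmed mean and 0.62 by quantiles, and ran from −0.067 to 0.10 without 1 library (0.10 without liver control 1, 0.065 without gut control 2). Over all named genes, 1189 alternative values kept direction and side of the threshold, 97 lost it, 13 gained it and 4 reversed. Those kept include genes that passed neither before nor after the change, and the tissue comparison is counted with the exposure comparisons. These totals therefore do not show how stable the exposure calls are, which is given gene by gene above. With numbered features added, 7 of 42 family sums moved beyond 1 SD, among them SLC13 in gut, from 3.78 to 35.0 FPKM in controls and from 4.52 to 44.3 FPKM at 10 µg/L.

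Correlations of the deviations of same-numbered libraries ran from −0.27 to 0.42. Libraries of unlike number were not compared, so these values cannot tell whether the replicate numbers pair the libraries. With the replicate block, 1, 1 and 2 carriers passed in the liver comparisons, 0 in gut and 20 between tissues, as without it.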
